A study of Mus musculus with 20 samples.

Results

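The data concern 8 genes of cholesterol synthesis and its transcriptional control in the mouse heart. They were chosen by symbol from the table of read-pair counts, as targets or parts of the sterol regulatory element-binding protein 2 (SREBP2) system. Of the 8 genes, 6 encode enzymes of the pathway (Hmgcs1, Idi1, Fdft1, Sqle, Cyp51 and Msmo1), Insig1 encodes an inhibitor of SREBP processing, and Srebf2 encodes SREBP2 itself. Among the 23420 genes of the table, 7 of the 8 were listed under these symbols, and Msmo1 was listed under its older symbol Sc4mol. All 8 passed the filter on low values, together with 13582 other genes, which gave 13590 genes tested. The filter asked for at least 1 CPM in at least 10 mice, where CPM is the count of a gene scaled to the size of its library.

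RNA was sequenced from the hearts of 20 male wild type C57BL/6 mice (C57BL/6J in the study's methods) at 9 weeks of age. For 6 weeks from 3 weeks of age, 10 mice received a control diet and 10 an iron-deficient diet, and the second group is called iron-deficiency anemia (IDA) here. Both groups shared strain, genotype, sex and age, and no transgene or drug was given. Whole frozen hearts were crushed, so every cell type of the heart contributed RNA, and a lower share of cells of a type and less RNA per cell cannot be told apart. The study left out a mouse of each group for contamination without naming it, and all 20 are kept here.

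Cholesterol is built from acetyl-CoA through mevalonate, isoprenoid diphosphates, squalene and lanosterol. When sterols in the endoplasmic reticulum are low, the escort protein SCAP carries SREBP2 to the Golgi, where proteases release a fragment that enters the nucleus and activates the genes of the pathway; INSIG proteins hold SCAP back when sterols are plentiful. Several late steps consume oxygen, and some of their enzymes carry iron. CYP51 holds a heme, and MSMO1 and SC5D are non-heme iron enzymes, whereas squalene epoxidase uses a flavin.

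The sequences shown here are the upstream stretches in which a sterol regulatory element was matched, since this is the element through which SREBP2 acts. RefSeq promoters (GRCm38.p6, from 250 bases before to 50 after the start site) matched 6 of the 8 genes, and Fdft1 and Sqle had no entry. On both strands, the letters TCACNCCA occurred in the promoters of Hmgcs1, Msmo1 and Srebf2, against 4.28% of all 27025 promoters. The box CCAAT, bound by NF-Y, occurred in all 6 and in 37.9% of all promoters. The E-box TCANGTGA, present in 4.17% of all promoters, was not found in these 6 windows. In the stretches below, written 5′ to 3′ on the strand of the gene, the capitals mark the match to the sterol regulatory element and the nearest CCAAT box, which reads ATTGG on the opposite strand.
Hmgcs1, chr13:119690150-119690246, plus strand: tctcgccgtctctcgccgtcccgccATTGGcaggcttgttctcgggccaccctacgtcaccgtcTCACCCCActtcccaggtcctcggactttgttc
Msmo1, chr8:64733709-64733780, minus strand: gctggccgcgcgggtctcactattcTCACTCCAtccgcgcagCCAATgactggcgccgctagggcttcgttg
Srebf2, chr15:82147082-82147163, plus strand: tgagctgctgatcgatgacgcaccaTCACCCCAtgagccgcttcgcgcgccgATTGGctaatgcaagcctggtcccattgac
The match began at position -137 from the RefSeq start site in Hmgcs1, -177 in Msmo1 and -162 in Srebf2. A match of letters is a description of the window and not a binding site. Only these exact letters were searched, so a window without a match was not shown to lack the element. In these hearts the 3 genes with the match did not move in one direction: without any correction, Hmgcs1 was lower in IDA, Msmo1 was higher, and Srebf2 did not pass the test, and all 3 calls changed under at least one of the corrections for length and GC content described below.

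Total counts lay between 6797180 and 8960688 in control mice and between 6682177 and 7833916 in IDA mice. All 6 cardiomyocyte markers (Myh6, Tnnt2, Tnni3, Actc1, Pln and Ttn) were tested. Their summed level lay between 4448 and 7104 CPM in control and between 3817 and 5794 CPM in IDA hearts. Ttn, the highest of them, fell from 3158 to 1824 CPM in the mean (log2 fold change -0.79). Myh6 (0.064), Tnnt2 (0.077), Tnni3 (0.15), Actc1 (0.082) and Pln (0.054) lay slightly higher in IDA and did not pass. After the length correction described below, Ttn stood at 0.57, and of the 6 markers 2 were higher, 2 lower and 2 did not pass. Of 7 erythroid markers, 3 were tested and 2 of these were higher in IDA (Alas2 and Slc4a1), with a summed level of 108.7 to 180.9 CPM in control and 177.8 to 645.6 CPM in IDA mice, while Hba-a1 was at 0 in all mice. A mouse of each diet stood apart in the summed level of 4 hepatocyte markers (Alb, Apoa1, Ttr and Cyp3a11), a cell type rich in enzymes of sterol synthesis: control mouse 4 was at 62.44 CPM, against 0.859 to 7.77 CPM in the other 9 control mice, and IDA mouse 7 at 125.9 CPM, against 1.63 to 14.0 CPM in the other 9 IDA mice. Results are therefore also given without this pair. The level of a gene also followed its exonic length differently in each diet. The slope on each doubling of length was between 0.020 and 0.20 on the log2 scale in control mice and between -0.25 and -0.025 in IDA mice, with no overlap. For this reason the fold changes of the 8 genes are given below both without and with a correction for length.

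Without any correction, the 8 genes did not move together between diets. A gene passed when its unadjusted p was below 0.01 in both edgeR's quasi-likelihood test and the Wald test of DESeq2. The adjusted p-values printed beside the results did not decide this. Fdft1, Sqle and Msmo1 were higher in IDA, Hmgcs1 and Idi1 were lower, and Cyp51, Insig1 and Srebf2 did not pass. That is 5 of 8 genes (62.5%), in an experiment where 59.8% of all tested genes passed, 30.6% of them higher and 29.2% lower in IDA as shares of the genes tested. The share among the 8 is close to that background and is therefore not a result about these genes as a group. The median log2 fold change of the 8 was 0.12, against 0.023 over all genes tested. For none of the 8 did the ranges of the 2 diets separate completely, as they did for 11.3% of all tested genes. Without control mouse 4 and IDA mouse 7, 4 of 8 passed, against 57.9% of 13523 genes tested: Fdft1 no longer did (log2 fold change 0.15, edgeR adjusted p = 0.02206), while Hmgcs1 (-0.28), Idi1 (-0.73), Sqle (0.46) and Msmo1 (0.27) did. With a score of the erythroid markers as a covariate, a score that did not overlap between diets, Hmgcs1 alone passed (log2 fold change -0.33, edgeR adjusted p = 0.01044), against 46.3% of all tested genes. With library size as a covariate Hmgcs1, Sqle (0.50) and Srebf2 (0.25) passed, against 49.8% of all tested genes. With length and GC content both corrected, as described below, 4 of 8 passed, all higher, against 23.6% of all tested genes higher and 16.2% lower. Neither Hmgcs1 nor Idi1 passed in that fit.

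**Figure D1:**
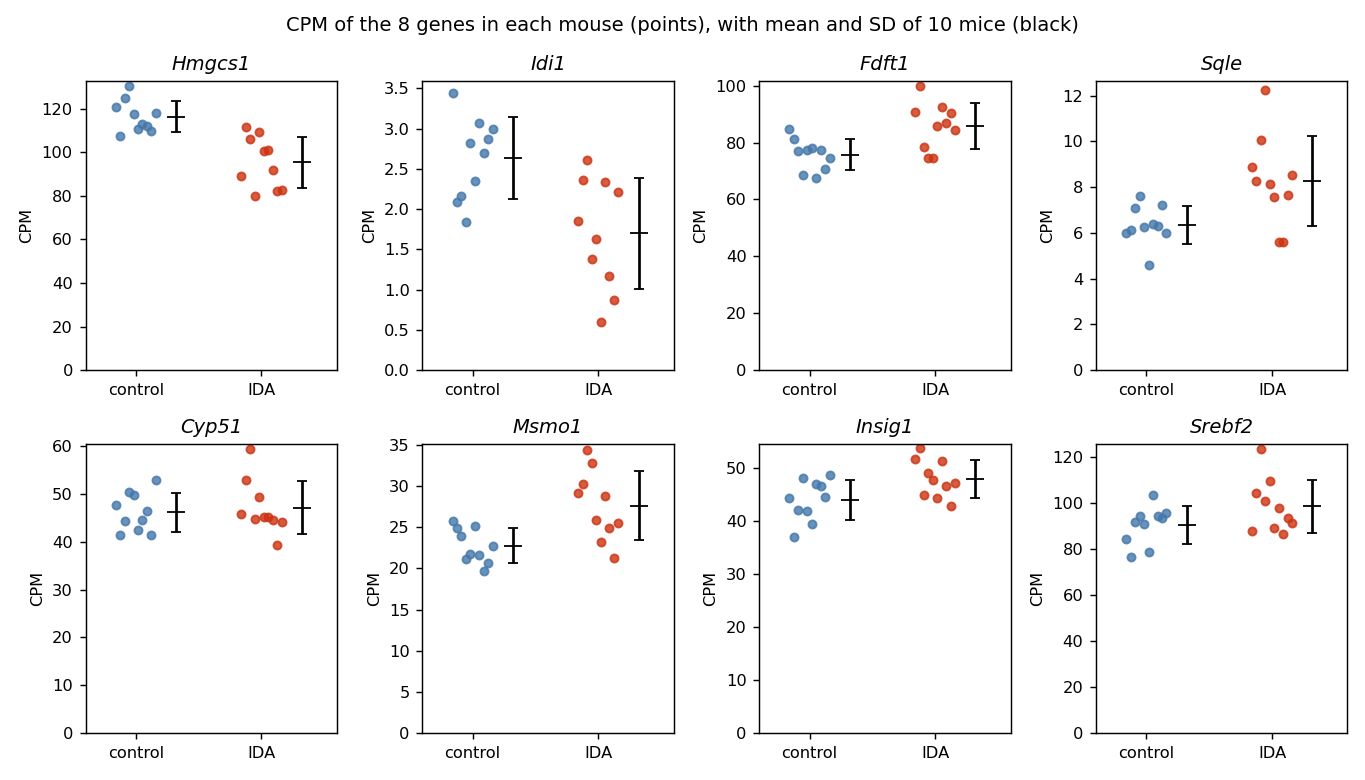
CPM (y axis, linear, from 0) of the 8 genes in each of the 10 control and 10 IDA mice, with a point for each mouse and the mean and SD of 10 mice in black. Hmgcs1 and Idi1 sit lower in IDA, Fdft1, Sqle and Msmo1 sit higher, and the points of the 2 diets overlap in every panel.

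Hmgcs1 encodes the cytosolic HMG-CoA synthase, which makes the precursor of mevalonate, and lies on chromosome 13 (mm10, 119690462 to 119708077, plus strand, 3283 exonic bases in 11 exon blocks). It was at 107.3 CPM in the lowest control mouse, 115.3 at the median and 130.1 in the highest. In IDA mice it was at 80.11 CPM in the lowest, 96.3 at the median and 111.7 in the highest. Of the 10 IDA mice, 8 lay below every control mouse, and none reached the control mean of 116.3 CPM. Hmgcs1 thus had a log2 fold change of -0.29 ± 0.060 (SE, 95% confidence interval -0.41 to -0.16, edgeR quasi-likelihood, adjusted p = 0.0002304), a level 0.820 times that of the control. By GENCODE M21, 557 bases (17% of its exons) lie opposite an antisense transcript, Gm48342, and the counting did not use strand. About 893 read pairs in control and 688 in IDA mice stood behind these means.

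Idi1 encodes isopentenyl-diphosphate isomerase, which interconverts the 5-carbon building blocks of isoprenoids, and lies on chromosome 13 as well (8885606 to 8892396, plus strand, 2867 exonic bases). It was the rarest of the 8, with 14 to 25 read pairs in a control mouse and 4 to 21 in an IDA mouse. Its level was 1.84 CPM in the lowest control mouse, 2.76 at the median and 3.45 in the highest. In IDA mice it was 0.593 CPM in the lowest, 1.74 at the median and 2.61 in the highest. The ranges were partly shared, with 5 of 10 IDA mice below every control mouse and none above the control mean of 2.64 CPM. For Idi1 the log2 fold change was -0.63 ± 0.20 (SE, 95% confidence interval -1.04 to -0.21, edgeR adjusted p = 0.008529). Its SD was 40.5% of the mean in IDA and 19.2% in control mice, and the call was kept in 66 of 100 fits that each left out a control and an IDA mouse, with an adjusted p of up to 0.03119. It was lost in 7 of 10 such fits without IDA mouse 6, 8 or 9. By GENCODE M21, 218 bases (7.6% of the exons of Idi1) lie opposite another transcript, Gm48574, and the counting did not use strand.

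Fdft1 encodes squalene synthase, which commits farnesyl diphosphate to sterols, and lies on chromosome 14 (63145150 to 63177793, minus strand, 2863 exonic bases). Control mice had 67.59 CPM at the lowest, 77.12 at the median and 84.71 at the highest. IDA mice had 74.6 CPM at the lowest, 86.24 at the median and 100 at the highest. Above the control mean of 75.7 CPM lay 8 of 10 IDA mice, and 6 lay above every control mouse. Its log2 fold change was 0.18 ± 0.054 (SE, 95% confidence interval 0.069 to 0.29, edgeR adjusted p = 0.005347), a level 1.13 times that of the control, and the call was kept in 83 of 100 fits without a mouse of each diet. In the annotation used for counting, 774 bases or 27.0% of its exons lie opposite exons of Ctsb, the gene of the lysosomal protease cathepsin B, and without strand the reads of the pair cannot be told apart there. Ctsb itself was at 419.6 ± 26.28 CPM (SD, n = 10) in control and 464.3 ± 18.36 CPM in IDA mice.

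Sqle encodes squalene epoxidase, which adds the first oxygen to squalene, and lies on chromosome 15 (59315092 to 59331193, plus strand, 2748 exonic bases). It was at 4.58 CPM in the lowest control mouse, 6.28 at the median and 7.61 in the highest. In IDA mice it was at 5.58 CPM in the lowest, 8.20 at the median and 12.25 in the highest. The IDA mice were more spread, with 8 of 10 above the control mean of 6.36 CPM and 7 above every control mouse. Between diets the log2 fold change was 0.38 ± 0.13 (SE, 95% confidence interval 0.12 to 0.64, edgeR adjusted p = 0.01001). Counts were low, 37 to 58 read pairs in control and 36 to 98 in IDA mice. Single mice decided the call, which was kept in 41 of 100 fits without a mouse of each diet, in none of the fits without IDA mouse 3 or IDA mouse 4, the pair with the highest levels, and the log2 fold change without a mouse of each diet ran from 0.26 to 0.46.

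Cyp51 encodes lanosterol demethylase, a cytochrome P450, and lies on chromosome 5 (4080674 to 4104697, minus strand, 4353 exonic bases). Control mice ran from 41.35 CPM over a median of 45.5 to 53.03. IDA mice ran from 39.43 CPM over a median of 45.19 to 59.52. The groups covered nearly the same range, with IDA mouse 2 level with the highest control mouse and IDA mouse 3 above it. A log2 fold change of 0.032 ± 0.065 (SE, 95% confidence interval -0.10 to 0.17, edgeR adjusted p = 0.6778) did not pass, and its sign was kept in 89 of 100 fits without a mouse of each diet. By GENCODE M21, 637 bases (14.6%) of its exons lie opposite exons of Akap9, the gene of a kinase-anchoring protein, which fell from 149.5 ± 24.08 to 91.15 ± 15.26 CPM (SD, n = 10, log2 fold change -0.72, edgeR adjusted p = 1.739e-06).

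Msmo1 encodes the methylsterol monooxygenase that starts the removal of the C4 methyl groups, and lies on chromosome 8 (64718145 to 64733578, minus strand, 1824 exonic bases). Control mice had 19.7 CPM at the lowest, 22.23 at the median and 25.79 at the highest. IDA mice had 21.23 CPM at the lowest, 27.35 at the median and 34.42 at the highest. Of the 10 IDA mice, 9 lay above the control mean of 22.8 CPM and 6 above every control. This gave a log2 fold change of 0.28 ± 0.081 (SE, 95% confidence interval 0.12 to 0.45, edgeR adjusted p = 0.003513), a level 1.22 times that of the control, and the call was kept in 96 of 100 fits without a mouse of each diet.

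Insig1 encodes an endoplasmic reticulum protein that retains SCAP and is itself an SREBP target, and lies on chromosome 5 (28071412 to 28078662, plus strand, 2648 exonic bases). Control mice had 37.02 CPM at the lowest, 44.49 at the median and 48.61 at the highest. IDA mice had 42.89 CPM at the lowest, 47.45 at the median and 53.77 at the highest. Most IDA mice (9 of 10) lay above the control mean of 44.0 CPM, with 4 above every control, but the difference was small. Its log2 fold change of 0.12 ± 0.055 (SE, 95% confidence interval 0.011 to 0.24, edgeR adjusted p = 0.04945) did not pass. The unadjusted p was 0.03336 in edgeR and 0.04369 in DESeq2.

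Srebf2, the gene of the transcription factor SREBP2, lies on chromosome 15 (82147269 to 82204960, plus strand, 4570 exonic bases in 19 exon blocks, the longest of the 8). Control mice had 76.58 CPM at the lowest, 92.74 at the median and 103.8 at the highest. IDA mice had 86.67 CPM at the lowest, 95.94 at the median and 123.6 at the highest. The groups overlapped over most of their range, with 3 of 10 IDA mice above every control mouse. A log2 fold change of 0.13 ± 0.064 (SE, 95% confidence interval -0.0068 to 0.26, edgeR adjusted p = 0.08668) did not pass, and its interval leaves room for a change of either sign. SREBP2 acts through a cleaved protein, which RNA does not measure.

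Levels between genes were compared as CPM per kilobase of exon. For Fdft1 all exonic bases entered, although 774 of them (27.0%) are shared with Ctsb and reads there cannot be told apart. Its place relative to Hmgcs1 is therefore uncertain. In control hearts Hmgcs1 was the highest of the 8 (35.44 ± 2.21 CPM per kb, SD, n = 10), followed by Fdft1 (26.45 ± 1.91), Srebf2 (19.79 ± 1.81), Insig1 (16.61 ± 1.45), Msmo1 (12.47 ± 1.15), Cyp51 (10.6 ± 0.925), Sqle (2.31 ± 0.305) and Idi1 (0.919 ± 0.176). Every step of this order held in 10 of 10 control mice. In IDA hearts Fdft1 (29.98 ± 2.85 CPM per kb) and Hmgcs1 (29.06 ± 3.57) differed by less than their SD, and Fdft1 was the higher of the pair in 7 of 10 IDA mice against 0 of 10 control mice. These levels carry no correction for GC content or for the slope on length. With both corrected, neither Hmgcs1 (log2 fold change -0.011) nor Fdft1 (0.15) passed, and their order was not examined there. The steps from Srebf2 to Insig1 and from Insig1 to Msmo1 each held in 9 of 10 IDA mice, and the others in 10 of 10. Sqle and Idi1 stood far below the other 6 on both diets.

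Fold changes followed exonic length across the tested genes. Genes within 10% of the length of Msmo1, the shortest of the 8, had a median log2 fold change of 0.21 (1240 genes), and those within 10% of the length of Srebf2 and Cyp51, the longest, had medians of -0.21 (1433 genes) and -0.18 (1540 genes). Msmo1 therefore stood 0.079 above genes of its own length, while Srebf2 stood 0.33 above them without having passed the test. After the length correction, 6 of the 8 passed (4 higher, 2 lower), against 47.3% of all tested genes (27% higher and 20.3% lower), and the median log2 fold change was 0.17, against 0.038 over all genes. Srebf2 (log2 fold change 0.38, edgeR adjusted p = 1.708e-06) and Cyp51 (0.26, edgeR adjusted p = 0.000953) then passed as higher in IDA. Msmo1 (0.14, edgeR adjusted p = 0.1257) no longer passed, and Insig1 (0.12, edgeR adjusted p = 0.07012) again did not. The other 4 kept their calls and directions, at -0.20 for Hmgcs1, -0.60 for Idi1, 0.21 for Fdft1 and 0.39 for Sqle.

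**Figure D2:**
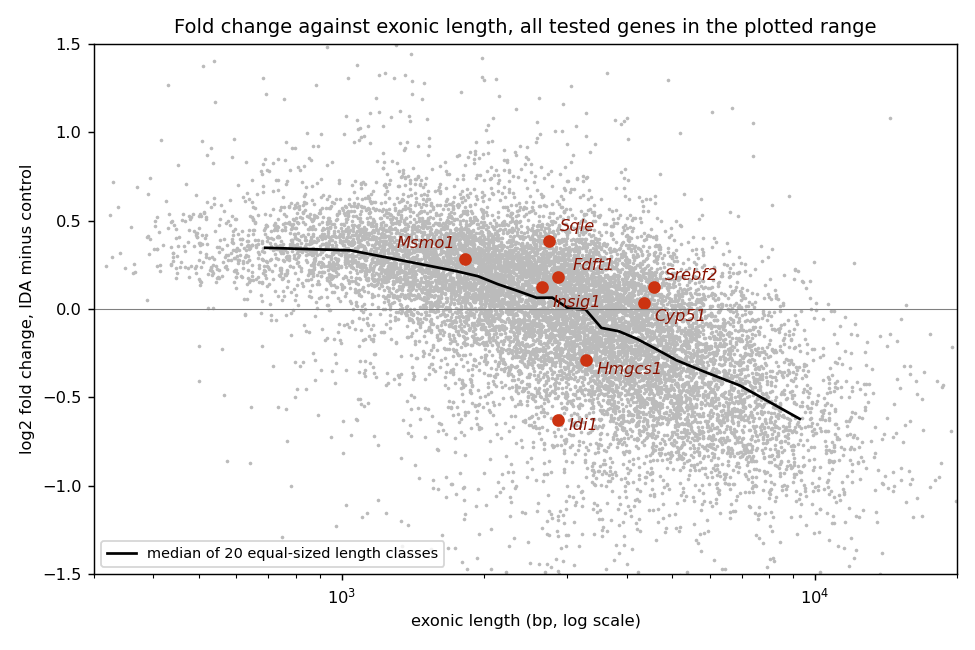
Log2 fold change (IDA minus control, y axis) against exonic length in bp (log x axis) for the tested genes within the plotted range (grey points), with the median of 20 length classes of equal size (black line) and the 8 genes in red. Msmo1 lies near the line at 0.28, whereas Srebf2 (0.13) and Cyp51 (0.032) lie above it and Hmgcs1 (-0.29) and Idi1 (-0.63) below it.

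A further correction for GC content, chosen after the data were seen, changed other members. Judged by their longest GENCODE M21 transcript, Idi1 (41.9% GC) and Hmgcs1 (43.1%) are the poorest in GC of the 8, and Srebf2 (57.9%) is the richest. With length and GC content both corrected, Hmgcs1 had a log2 fold change of -0.011 (edgeR adjusted p = 0.8549) and Idi1 one of -0.38 (adjusted p = 0.1049), and neither passed. Fdft1 (0.15, edgeR adjusted p = 0.0279) and Srebf2 (0.11, adjusted p = 0.1517) did not pass either. Higher in IDA were Sqle (0.44, edgeR adjusted p = 0.005282), Cyp51 (0.36, adjusted p = 3.591e-05), Msmo1 (0.28, adjusted p = 0.002763) and Insig1 (0.18, adjusted p = 0.005897). Thus 4 of 8 passed, all higher, against 39.8% of all tested genes (23.6% higher and 16.2% lower). Only Sqle passed in all 3 fits, although its call without correction was kept in just 41 of 100 fits without a mouse of each diet. In each of the 3 fits 6 of the 8 genes had a positive log2 fold change. The median over all tested genes was also positive in each (0.023, 0.038 and 0.034).

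**Figure D3:**
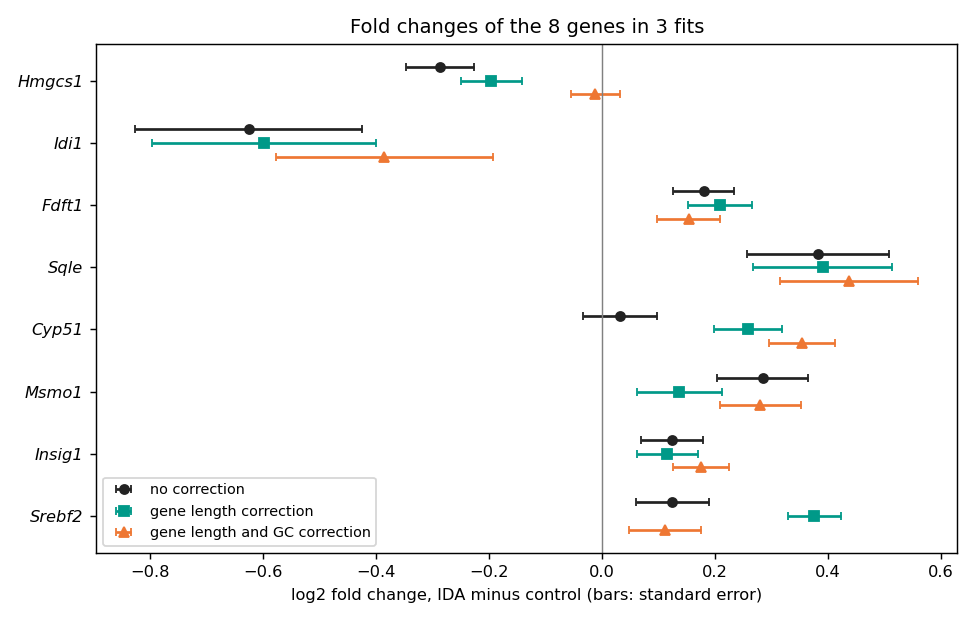
Log2 fold change (IDA minus control, x axis) of the 8 genes without correction (black circles), after the length correction (green squares) and after the correction for length and GC content (orange triangles), with bars of 1 standard error. Hmgcs1 moves from -0.29 to -0.011 and Cyp51 from 0.032 to 0.36, while Sqle stays between 0.38 and 0.44.

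The names of the sample columns carry a number whose meaning is not stated, in a lower and an upper range, with 5 control and 7 IDA mice in the lower and 5 control and 3 IDA mice in the upper. Within the ranges, the log2 difference of Hmgcs1 was -0.29 and -0.24, that of Fdft1 0.19 and 0.20, that of Sqle 0.33 and 0.44, and that of Msmo1 0.24 and 0.41. Idi1 was the exception among the genes that passed, with -0.92 in the lower and -0.088 in the upper range. Cyp51 was at -0.024 and 0.17, Insig1 at 0.057 and 0.23, and Srebf2 at 0.039 and 0.26, each with the larger value among the upper numbers. The difference between the ranges was not tested, and the upper range holds only 3 IDA mice.

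The other enzymes of isoprenoid and sterol synthesis were also split. Of 14 tested, 6 were higher in IDA, 4 were lower and 4 did not pass, with a median log2 fold change of 0.083, and after the length correction 4 were higher, 4 lower and 6 did not pass. Here and in the lists that follow, the counts stand beside 30.6% of all tested genes higher and 29.2% lower without correction, and 27% higher and 20.3% lower with it. Values with GC content corrected as well are not given for the genes of these lists, so whether their changes would remain was not examined. Hsd17b7, a 3-ketosteroid reductase of C4 demethylation, fell from 50.99 to 34.87 CPM (log2 fold change -0.55 ± 0.10, edgeR adjusted p = 6.409e-05, and -0.30 after the length correction), and Fdps, farnesyl diphosphate synthase, rose from 20.73 to 30.18 CPM (0.54 ± 0.079, edgeR adjusted p = 3.454e-06, and 0.33 after the length correction). Pmvk, phosphomevalonate kinase, rose from 26.04 to 36.73 CPM (0.50 ± 0.068, edgeR adjusted p = 1.811e-06, and 0.29 after the length correction). Along the pathway the mevalonate branch held both directions. The kinases and decarboxylase between Hmgcs1 and Idi1 were all higher (Mvk 0.49, Pmvk 0.50 and Mvd 0.43 on the log2 scale, and 0.31, 0.29 and 0.29 after the length correction), while Hmgcs1 before them and Idi1 after them were lower. The calls of Hmgcs1 and Idi1 were lost once GC content was corrected as well. Ggps1, which makes the geranylgeranyl donor for protein modification, was lower (-0.44).

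Past lanosterol, Tm7sf2 (0.38) and Ebp (0.29) were higher, Lbr (-0.28), which shares the sterol reductase activity of Tm7sf2, was lower, and Nsdhl and Dhcr7 did not pass. Sc5d, the iron-dependent desaturase, fell from 42.53 to 32.86 CPM (log2 fold change -0.37 ± 0.070, edgeR adjusted p = 6.362e-05) and stood at -0.45 after the length correction. Beside Sc5d, the other iron enzymes had log2 fold changes of 0.28 (Msmo1) and 0.032 (Cyp51) without correction. These were 0.14 and 0.26 after the length correction, and 0.28 and 0.36 after the correction for length and GC content. For Sc5d no value with GC content corrected is given, so the enzymes cannot be set side by side in that fit. Differences between these enzymes were not tested. Tm7sf2 and Ebp no longer passed after the length correction. Over all 20 enzymes, 9 were higher, 6 lower and 5 did not pass without correction. Enzymes that passed in the same direction with and without the length correction numbered 6 higher and 6 lower. The share of all tested genes that passed in both fits is not given, so these last counts have no background beside them.

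**Figure D4:**
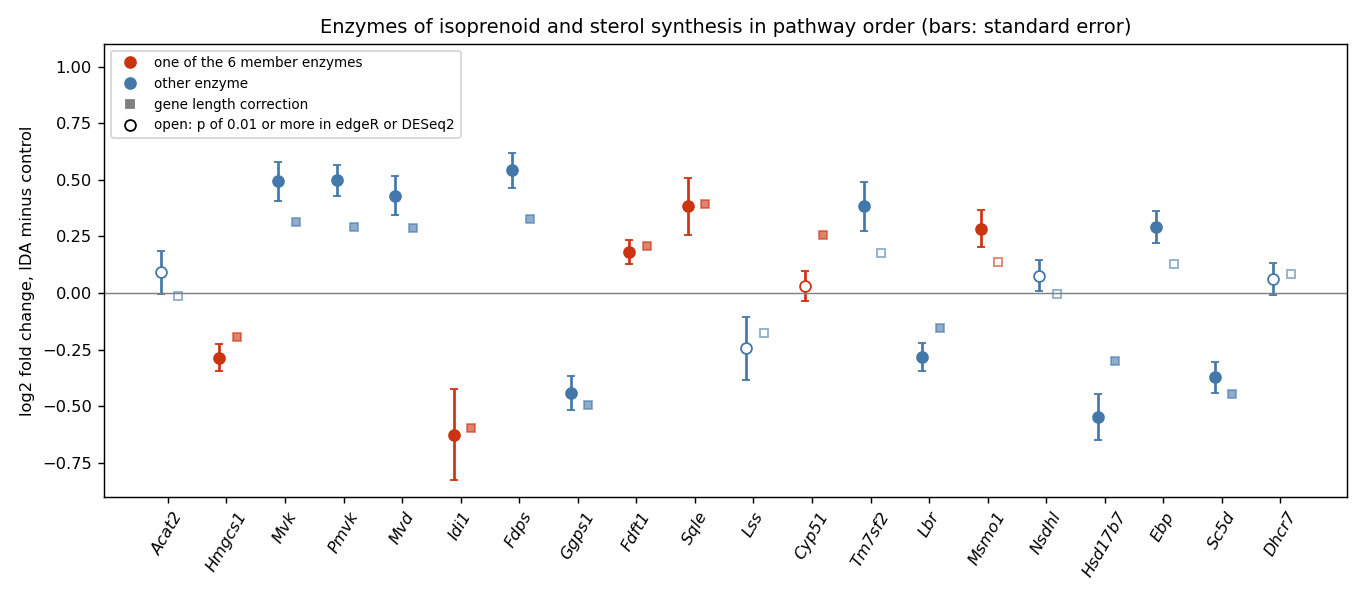
Log2 fold change (IDA minus control, y axis) of 20 enzymes in the order of the pathway (x axis), with circles and bars of 1 standard error for the uncorrected fit, squares for the length correction, red for the 6 enzymes among the 8 genes, and open symbols where p was 0.01 or more in edgeR or DESeq2. Higher and lower genes are mixed along the pathway, from Hmgcs1 (-0.29) and Mvk (0.49) to Ebp (0.29) and Sc5d (-0.37).

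The genes that control SREBP processing were split as well. Of 8 tested, 3 were higher, 3 lower and 2 did not pass (median log2 fold change -0.054). Mbtps2, the protease that makes the final cut in SREBP, fell from 40.49 to 24.12 CPM (-0.75 ± 0.095, edgeR adjusted p = 7.821e-07) and remained lower after the length correction (-0.48). Srebf1, the gene of SREBP1, rose from 122.6 to 142.4 CPM (0.22 ± 0.066, edgeR adjusted p = 0.0059, and 0.43 after the length correction). Mbtps1, the protease of the first cut, was lower without the length correction (-0.16) and did not pass with it (0.065). The escort gene Scap was higher (0.14, and 0.36 after the length correction), and Insig2, the second INSIG, was lower (-0.14, and -0.10). With the length correction 4 of these 8 genes were higher, 3 lower and 1 did not pass.

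Among 4 genes that feed electrons to the sterol oxygenases, Cyb5r3 (0.34), Por (0.26) and Cyb5a (0.17 on the log2 scale) were higher and Cyb5b did not pass, and Cyb5a turned to -0.17 after the length correction. Por, the cytochrome P450 reductase that serves CYP51 and squalene epoxidase, rose from 110.2 to 131.8 CPM. In the non-sterol branches, 3 of 8 genes were higher, 1 was lower and 4 did not pass (median 0.070), whereas after the length correction 2 were higher, 3 lower and 3 did not pass (median 0.062). Pggt1b, a subunit of an enzyme that prenylates proteins, fell from 34.15 to 16.51 CPM (log2 fold change -1.05 ± 0.13, edgeR adjusted p = 6.5e-07, and -1.04 after the length correction). Fnta, the subunit it is paired with, was higher (0.22) but did not pass after the length correction (0.083), and Dhdds, of dolichol synthesis, was higher in both fits (0.22 and 0.29).

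Of 19 genes of cholesterol transport and storage, 6 were higher, 9 lower and 4 did not pass, with a median log2 fold change of -0.22 that became 0.079 after the length correction, when 6 were higher and 6 lower. Abca1, the cholesterol exporter, with 10260 exonic bases, fell from 119.4 to 64.23 CPM (-0.90 ± 0.15, edgeR adjusted p = 1.372e-05), and by 0.29 on the log2 scale after the length correction. Osbpl8, a lipid transfer protein, fell from 260.0 to 150.7 CPM (-0.79, and -0.33 after the length correction), and Tmem97, an SREBP2 target, rose from 10.67 to 17.84 CPM (0.75 ± 0.10, edgeR adjusted p = 2.272e-06, and 0.51 after the length correction). Stard4, a sterol carrier that is likewise an SREBP2 target, fell from 13.95 to 8.38 CPM (-0.74 ± 0.14, edgeR adjusted p = 6.837e-05), and kept this size after the length correction (-0.69). Of 13 fatty acid genes under SREBP1, 1 was higher, 3 lower and 9 did not pass (median -0.051), and after the length correction 4 were higher, 2 lower and 7 did not pass (median 0.11). The desaturase gene Scd2 (-0.51), the elongase gene Elovl5 (-0.39) and Thrsp (0.34) had the largest changes without correction, and of these Elovl5 alone also passed after the length correction. Fasn, fatty acid synthase, was at 159.2 CPM in control and 153.4 CPM in IDA mice (-0.051, edgeR adjusted p = 0.7232), and its long transcript of 9938 exonic bases passed as higher after the length correction (0.55, edgeR adjusted p = 0.0003276).

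Within a diet, the 8 genes varied together only in part. Log2 CPM was correlated for 28 pairs of genes in each diet, 56 relations in all, and Pearson's r was positive for 16 pairs in control and 22 pairs in IDA mice. No r had an adjusted p below 0.05 (permutation test, Benjamini-Hochberg over the 56). The highest was that of Insig1 and Srebf2 in control mice (r = 0.842, p = 0.00237, adjusted p = 0.133; Spearman's rho = 0.903, p = 0.00086, adjusted p = 0.0482; n = 10), and r dropped to 0.501 once the 2 mice farthest from the median Insig1 level were left out. In IDA mice the closest pair was Cyp51 and Srebf2 (r = 0.794, p = 0.00662, adjusted p = 0.165; rho = 0.576, p = 0.0877, adjusted p = 0.29; n = 10), where r was 0.422 without the 2 farthest mice. Fdft1 and Srebf2 ran against each other in control mice (r = -0.751, p = 0.0128, adjusted p = 0.165; rho = -0.830, p = 0.00471, adjusted p = 0.132; n = 10, and r = -0.638 without the 2 farthest). IDA mouse 3 had the highest level of Idi1, Cyp51, Msmo1 and Srebf2 among IDA mice, and IDA mouse 9 the lowest of Cyp51, Msmo1 and Insig1.

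The mean of the 6 enzymes, each standardized, was compared over the 20 mice with every other tested gene after the mean of each diet had been removed. The genes closest to it were Atf1 (r = 0.855), Fbxw7 (0.850), Mapk8 (0.832), A830080D01Rik (0.822), Tgds (0.788), Kbtbd12 (0.787), Fam188a (0.785) and Vma21 (0.782), none of them an enzyme of sterol synthesis. After the length correction the same 8 correlations lay between 0.678 and 0.852. Depth and the slope on length differ among these mice and enter every gene, and the values carry no test. Of the pathway lists, Sc5d came closest (0.584, 280th among the other genes), ahead of Hsd17b7 (0.581), and the correlation was 0.491 for Srebf2 and 0.390 for Insig1.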

How the data were processed

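Per the labels and the paper's methods, the authors aligned paired reads to mm10 with STAR, discarded PCR duplicates with samtools and deposited unnormalized featureCounts (version 1.4.5-p1) counts of read pairs for 23420 genes, unstranded. Depth was 6682177 to 8960688 counts per mouse, and confidence intervals rest on the spread among mice.

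TMM normalization and the quasi-likelihood test came from edgeR (version 4.0.16, R 4.3.3), and the Wald test from DESeq2 (version 1.42.0). Genes passed at p below 0.01 in both, the study's threshold, taken here as unadjusted p. By its rule the study reported far fewer genes, most of them lower in IDA. Here 8131 passed, 4158 higher and 3973 lower, so the shares of all tested genes are not the study's. The reason for this difference was not tested. Adjusted p-values are Benjamini-Hochberg over 13590 genes. Genes without 1 CPM in at least 10 mice (9830) were left out. Correlations used log2 CPM (prior count of 2) and 100000 permutations. For the length correction, the deviation of a gene in a mouse from its mean was regressed on log2 exonic length by loess (span 0.5, degree 1), and the fitted curve was entered as an offset. GC content was that of the longest GENCODE M21 transcript of a gene, not of the exons counted. It was known for 99.18% of tested genes, and the others were given the median.

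Msmo1 was matched through a RefSeq synonym. Some genes of the pathway and marker lists are not reported here. Members and lists were chosen with earlier results of these data known. The text names the 8 genes, the 3 largest changes of each list first, and the 8 genes most correlated with the enzymes. Alternatives were other normalizations, filters, limma (version 3.58.1), covariates for library size, an erythroid marker score and the number in the column name, and the replicate number as a block. The mice highest in hepatocyte markers were left out as an alternative chosen after the data were seen, as were the GC correction and the column number. The steps were tested on simulated data.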

Additional observations from a re-analysis of the deposited data

Results flagged for a closer look

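In the summed level of 4 hepatocyte markers (Alb, Apoa1, Ttr and Cyp3a11), control mouse 4 stood at 62.44 CPM, with the next control mouse at 7.77 CPM, a gap that spans 0.888 of the range of the 10 control mice. IDA mouse 7 stood at 125.9 CPM, with the next IDA mouse at 14.0 CPM, a gap that spans 0.9004 of the range of the 10 IDA mice. These were 2 of 28 sets of 10 mice examined for a mouse far from the others, and chance gives about 1.4. The part of these mice in the other results was examined only by leaving both out, after which Fdft1 no longer passed.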

How the results depend on the processing

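Against 5 of 8 genes passing (3 higher, 2 lower), 3 passed with library size as a covariate (1 of them lower, against 49.8% of all tested genes) and 1 with the erythroid score as a covariate (0 higher, 1 lower, against 46.3%), and the score did not overlap between diets (4.17 to 4.86 in control, 4.96 to 7.46 in IDA mice). With 1 CPM required in all mice, which removed Idi1, 4 genes passed, 1 of them lower, against 62.8% of all tested genes. With length and GC content corrected 0 were lower, against 16.2% of all tested genes. Leaving out a control and an IDA mouse gave 2 to 5 genes, 0 to 3 of them higher and 1 to 2 lower, and the log2 fold change of Cyp51 then ran from -0.029 to 0.081. The share of all tested genes that passed is not given for these fits, so the range is not a result about the 8 genes. Among all 100 such fits Hmgcs1 passed in 100, Msmo1 in 96, Fdft1 in 83, Idi1 in 66 and Sqle in 41. The median log2 fold change of the 8 kept its sign in every alternative. Other size factors, limma and no filter kept the count within 1.5 times of 5, against 44.3% (no filter) to 61% (upper-quartile factors) of all tested genes. The cause of these shifts was not tested.

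Controls and IDA mice share replicate numbers. The deviations of same-numbered mice correlated between -0.28 and 0.26, above 0.1 in 3 of 10 pairs. Of 10 controls, 3 were closest to their own number. Mice 1 to 3 of both diets also share the upper range of column numbers, and mice 6 to 10 the lower. What a shared replicate number stands for is not stated, and these correlations cannot decide it. With the replicate block 3 genes passed (1 lower), Idi1 (-0.66, edgeR adjusted p = 0.01229) and Sqle (0.36, adjusted p = 0.01204) no longer among them. With the block and the length correction 4 passed, 1 of them lower, against 39.9% of all tested genes. Over all tested genes 7461 passed with the block alone, against 8131 without it. Without control mouse 4 and IDA mouse 7, left out after the data were seen, 4 genes passed (2 higher, 2 lower), against 57.9% of all tested genes. Depth limits Idi1 and Sqle most, with as few as 4 and 36 read pairs in a mouse.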
